A study of Mus musculus with 12 samples.

Results

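The 10 genes described here encode the enzymes and the carrier that bring long-chain fatty acids into mitochondria and shorten them by beta-oxidation. They were taken by symbol (Cpt1a, Slc25a20, Cpt2, Acadvl, Acadl, Acadm, Acads, Hadha, Hadhb and Acaa2), and all 10 were found among the 53379 genes of the count table and passed the filter on low counts. RNA was measured in bone marrow-derived macrophages (BMDMs) of 4 male adult C57Bl/6J mice. Cells from every mouse either received nothing or were given 1 μM fenoterol, an agonist of the beta-2 adrenergic receptor (B2AR), for 1 h or for 4 h, which gave 12 libraries with 4 in each of 3 groups. All cells, the untreated ones included, had been grown for a week in medium conditioned by L929 cells, a fibroblast line that secretes macrophage colony-stimulating factor, and fenoterol was added without a change of medium. The labels name no engineered allele, and the 3 libraries of a mouse number came from the same animal.

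In this pathway a fatty acid is first activated to acyl-CoA. Carnitine palmitoyltransferase 1 on the outer mitochondrial membrane moves the acyl group to carnitine, a carrier of the inner membrane exchanges acylcarnitine for carnitine, and carnitine palmitoyltransferase 2 rebuilds acyl-CoA in the matrix. Acyl-CoA dehydrogenases of different chain length preference, a hydratase, a second dehydrogenase and a thiolase then release acetyl-CoA in a repeated cycle. In macrophages the pathway is best known for its part in lipid handling and in the metabolism of alternatively activated cells, and the study asked how B2AR signaling changed lipid metabolism in these cells.

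Promoter windows from RefSeq (GRCm38.p6, 250 bases before to 50 bases after a start) were available for 9 of the 10 genes, all except Acaa2. A few stretches are shown, without any exon bases, because they lie before the start of the carrier gene that rose at both times, before the carnitine palmitoyltransferase gene that differed between the times, and between the starts of Hadha and Hadhb, the 2 subunit genes of 1 enzyme. Capitals mark GC boxes, GGGCGG or its reverse complement CCGCCC.
Slc25a20 (chr9:108661886-108662087, plus strand): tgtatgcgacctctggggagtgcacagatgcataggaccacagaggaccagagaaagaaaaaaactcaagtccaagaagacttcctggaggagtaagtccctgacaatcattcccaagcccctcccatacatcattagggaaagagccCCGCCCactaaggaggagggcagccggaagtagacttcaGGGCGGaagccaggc
Cpt2 (chr4:107923611-107923839, minus strand): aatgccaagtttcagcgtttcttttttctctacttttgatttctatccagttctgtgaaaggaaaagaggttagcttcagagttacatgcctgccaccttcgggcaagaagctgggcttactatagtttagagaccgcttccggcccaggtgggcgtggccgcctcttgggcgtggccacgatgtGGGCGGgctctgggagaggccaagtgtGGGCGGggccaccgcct
Hadha-Hadhb (chr5:30155163-30155247, plus strand): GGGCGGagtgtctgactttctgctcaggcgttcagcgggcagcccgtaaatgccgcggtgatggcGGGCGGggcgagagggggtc

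Hadha and Hadhb pointed away from each other, with 85 bases between their GENCODE starts. Searched on both strands of the 300-base windows, the GC box was found in 7 of the 9 genes (Acadl, Cpt2, Hadha, Hadhb, Acads, Slc25a20 and Cpt1a) and in 35.6% of all 32817 windows. The Hadha match and the most upstream Hadhb match were the same site, since the windows of these genes overlap. The cAMP response element TGACGTCA, the full site of the transcription factor CREB, was in none of the 9 windows and in 1.79% of all. Its shorter site TGACG, which the full site also holds, was in the Acadm window alone, and in 20.8% of all. TNAAGGTCA, the element of estrogen-related receptors, the direct repeat read by PPAR factors (with 1 base between its parts) and the E-box CACGTG had no match in the 9 windows, against 1.28%, 0.0396% and 7.15% of all windows.

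The libraries held 14580533 to 24153284 counts, of which the 10 genes together took 718 to 758 CPM (counts per 1000000 counts of the library) without fenoterol, 669 to 719 CPM after 1 h and 691 to 729 CPM after 4 h. Normalized counts below are counts divided by the library's size after TMM scaling, a method that sets libraries to the same level over most genes, and multiplied by the mean size of the 12 libraries. The TMM factors were 1.00 to 1.02 without fenoterol, 0.953 to 0.974 after 1 h and 1.02 to 1.04 after 4 h. The CPM values do not include this scaling, which differed between the groups. All 8 macrophage markers were detected in each group, with summed normalized counts of 749803 to 786245, 725450 to 853151 and 702265 to 789743, most of them from Lyz2. Single markers moved apart: at 1 h, 2 of the 8 passed, with Cd14 higher (log2 fold change 2.39) and Mertk lower (-0.20). At 4 h, 7 of the 8 passed, with Cd14 (2.52), Fcgr1 (0.72) and Itgam (0.42) higher and Mertk (-1.51), Csf1r (-0.26), Cd68 (-0.22) and Adgre1 (-0.21) lower. Of all genes tested, 20.1% passed at 1 h and 40.0% at 4 h. All 3 erythroid markers were at 0, as were Plin1 and Cd8a. Of the 4 T cell markers only Cd4 had a mean above 1 (648 untreated, 677 at 1 h and 595 at 4 h). Summed neutrophil markers were 325 to 620, 355 to 590 and 337 to 566. Summed fibroblast markers were 224 to 609, 367 to 600.3 and 243 to 631. Summed adipocyte markers were 352 to 422, 312 to 449 and 153 to 264, nearly all from Fabp4, which macrophages also express. Their part in the results below was not tested. Because these are bulk samples, fewer cells of a type and less RNA per cell cannot be told apart.

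Most of these genes were at similar levels per length. In untreated BMDMs, the RPKM value (reads per kb of mRNA per 1000000 reads after scaling) was highest for Hadha (40.9 ± 1.57, mean ± SD, n = 4 mice), followed by Cpt1a (40.4 ± 2.87), Acadm (39.0 ± 0.827), Acadvl (38.4 ± 0.779), Acaa2 (36.4 ± 2.10), Acadl (32.5 ± 4.70) and Acads (28.2 ± 1.53). Each of these 7 overlapped its neighbours in this order over the mice. Acads lay below Hadha, Cpt1a, Acadm, Acadvl and Acaa2 without overlap. Below them, without overlap, came Slc25a20 (15.6 ± 1.00), Cpt2 (11.9 ± 0.714) and Hadhb (4.19 ± 0.171). The last 3 kept this order at 1 h (20.5, 10.5 and 4.33) and at 4 h (20.3, 12.7 and 3.54), and Hadha had the highest mean in each group, overlapping Acadm and Cpt1a at 4 h.

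**Figure D1:**
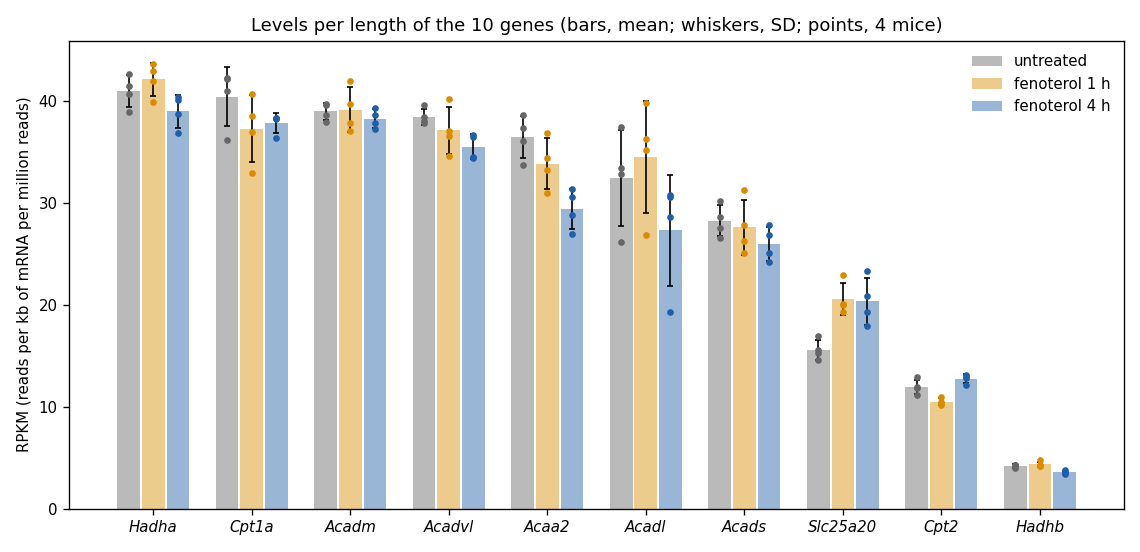
Levels per length (RPKM) of the 10 genes in untreated BMDMs (gray), after 1 h (orange) and after 4 h (blue) of fenoterol. Bars are means, whiskers SD and points the 4 mice; 7 genes lie between 26.0 and 42.1 in every group mean, with Slc25a20, Cpt2 and Hadhb below.

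Some of these levels can be affected by shared sequence. Of the runs of 50 bases in the Hadhb mRNA, 62.4% also occurred in transcripts of other genes, mostly in the processed pseudogene Gm13910 on chromosome 2, to which 4 to 24 counts per library were assigned. How the counting treated reads with several matches was not given in the sources used here. Hadha had 17.7 to 20.3 counts per Hadhb count without fenoterol, 17.8 to 20.1 after 1 h and 20.3 to 22.8 after 4 h. For Acadvl, 42.9% of the exon bases overlapped Dvl2 on the opposite strand, and the strand option of the counting was not given. Dvl2 itself had mean normalized counts of 852 without fenoterol, 610 after 1 h and 641 after 4 h. Acadm shared 4.10% of its runs of 50 bases, mostly with Gm5131, Hadha 0.655%, and the other 6 genes none. Percentages of shared runs are given for the mRNA with the longest coding sequence. Over all transcripts of a gene, Slc25a20 shared 297 of 4793 runs and Cpt1a 65 of 7634. Cpt2, Acadl, Acads and Acaa2 shared none there either. The part of these shared runs in the counts of Slc25a20 and Cpt1a was not tested.

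The changes of the 10 genes after fenoterol were at most 0.40 on the log2 scale. After 1 h, 2 of the 10 passed an adjusted p of 0.05 in edgeR's quasi-likelihood test, with Slc25a20 higher and Cpt2 lower, a share close to the 20.1% of the 12386 genes tested that passed (10.0% higher and 10.1% lower). After 4 h, 3 of the 10 passed, with Slc25a20 higher and Hadhb and Acaa2 lower, against 40.0% of all genes (19.7% higher and 20.4% lower). Between 4 h and 1 h, 3 of the 10 passed, with Cpt2 higher at 4 h and Hadhb and Acaa2 lower, against 38.5% of all genes (18.7% higher and 19.8% lower). The fit behind these counts had no mouse term, although the 3 libraries of each mouse are paired. With the mouse as a block, which takes up the pairing, Acadl passed at 4 h and between the times. Hadhb then no longer passed at 4 h. With libraries scaled by total count only, the share of higher calls among all called genes was 32.5% in place of 49.8% at 1 h and 65.7% in place of 48.6% between the times. Of the 10 genes, 2 then passed at 4 h, 1 higher and 1 lower, and 1 between the times, which was higher.

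The median log2 fold change of the 10 genes was -0.01 at 1 h, -0.11 at 4 h and -0.08 between the times, against -0.0049, 0.0042 and 0.0074 over all genes tested. Their median absolute log2 fold change was 0.07, 0.12 and 0.10, against 0.15, 0.23 and 0.22 over all genes tested. Their standard errors were also smaller (median 0.067, against 0.099 over all genes). The normalized counts of the compared groups did not overlap for 2 of the 10 genes at 1 h, 4 at 4 h and 2 between the times, against 23.0%, 37.6% and 35.9% of all genes. The 1 h and 4 h comparisons share the untreated libraries.

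**Figure D2:**
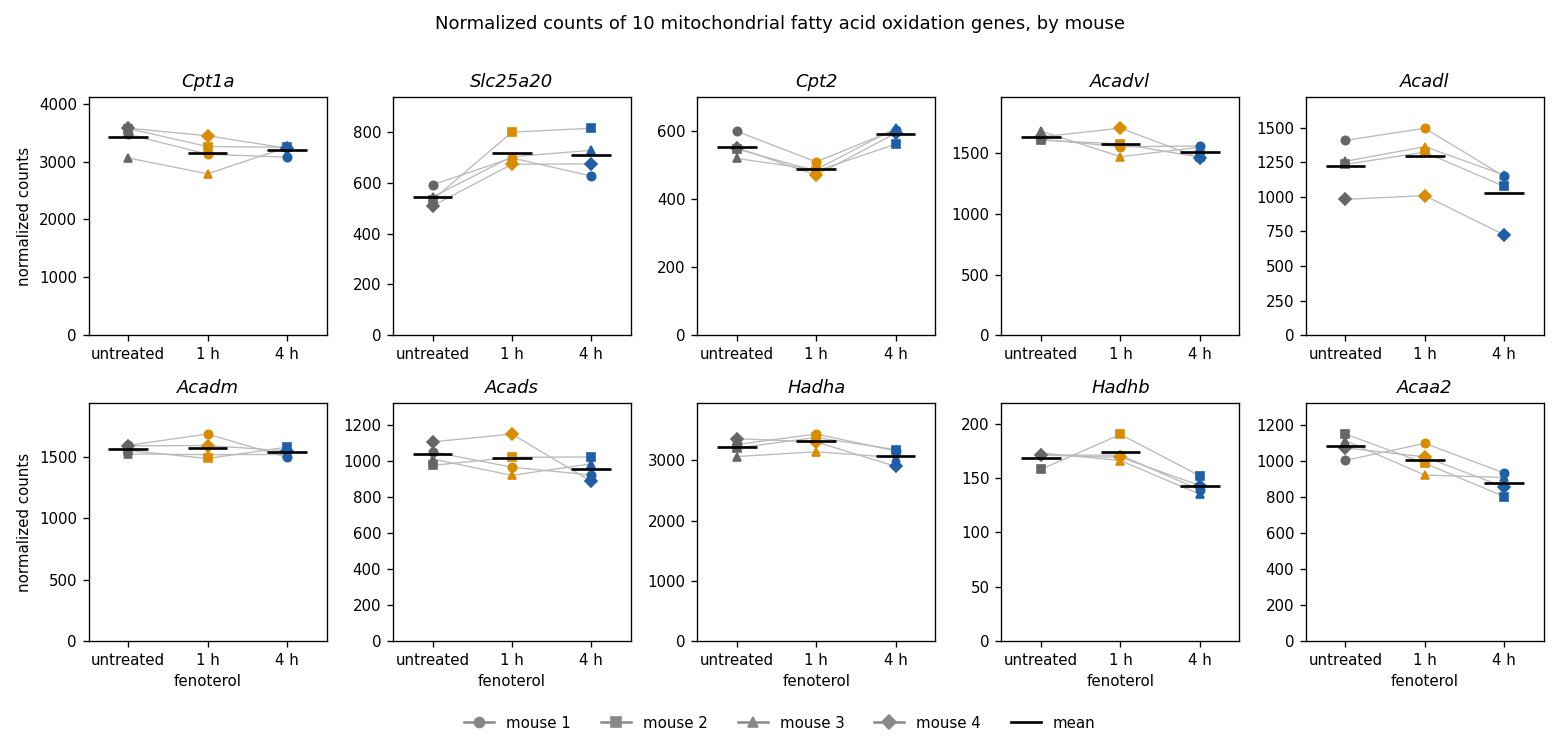
Normalized counts (y axis, from 0, scaled per gene) of the 10 genes in untreated BMDMs and after 1 h and 4 h of fenoterol. Symbols are the 4 mice, gray lines join the libraries of a mouse and black bars are means; Slc25a20 rose from a mean of 545 to 718 and 711, Acaa2 went from 1084 to 875 at 4 h, and mouse 4 is lowest for Acadl in each group.

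Of the 3 genes of the carnitine shuttle, Slc25a20 rose, Cpt2 fell at 1 h and did not pass at 4 h, and Cpt1a did not pass at either time. Slc25a20 (ENSMUSG00000032602, chr9:108662088-108684641) encodes the carnitine-acylcarnitine carrier of the inner membrane. Its normalized counts in mice 1 to 4 were 592, 532, 544 and 509 untreated, 698, 800, 703 and 673 at 1 h, and 627, 815, 728 and 675 at 4 h. Every treated library lay above every untreated one, and mouse 1 had the smallest difference at 4 h. The log2 fold change was 0.40 (SE 0.084, edgeR adjusted p = 0.00326) at 1 h and 0.38 (SE 0.084, edgeR adjusted p = 0.00193) at 4 h, a rise of 31.7% and 30.4%. The 2 times differed by -0.01 (95% interval -0.19 to 0.16, edgeR adjusted p = 0.917).

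Cpt2 (ENSMUSG00000028607, chr4:107903981-107923610) encodes carnitine palmitoyltransferase 2. In mice 1 to 4 it had 600, 548, 520 and 552 normalized counts untreated, 510, 483, 487 and 471 at 1 h, and 605, 562, 609 and 594 at 4 h. All 1 h libraries lay below all others, and the 4 h libraries overlapped the untreated ones. Cpt2 fell by 0.19 on the log2 scale at 1 h (SE 0.060, edgeR adjusted p = 0.0390), was at 0.09 at 4 h (95% interval -0.03 to 0.22, edgeR adjusted p = 0.238), and was higher at 4 h than at 1 h by 0.28 (SE 0.060, edgeR adjusted p = 0.00179). The fall at 1 h was not called by DESeq2 (adjusted p = 0.0675), without a filter on low counts (0.186), in a fit of the 2 groups alone (0.0798), or without any 1 of 7 libraries (untreated mice 1, 2 and 4, 1 h mice 2, 3 and 4, and 4 h mouse 3, adjusted p 0.0501 to 0.124). The difference between the times was called under all 20 alternatives.

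Cpt1a (ENSMUSG00000024900, chr19:3322334-3385733) encodes the liver form of carnitine palmitoyltransferase 1, the regulated step of entry that malonyl-CoA inhibits. Its normalized counts in mice 1 to 4 were 3473, 3572, 3064 and 3579 untreated, 3128, 3261, 2790 and 3447 at 1 h, and 3078, 3248, 3247 and 3232 at 4 h. The groups overlapped, although each mouse was lower at 1 h than untreated. The log2 fold change was -0.12 at 1 h (95% interval -0.26 to 0.03, edgeR adjusted p = 0.271) and -0.10 at 4 h (95% interval -0.24 to 0.05, edgeR adjusted p = 0.285). Of the other forms, Cpt1b had at most 5 counts in a library and was not tested, and Cpt1c, with a log2 fold change of -0.85 at 1 h (edgeR adjusted p = 0.117, lower in 4 of 4 mice, a value given after it was seen), passed at neither time.

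**Figure D3:**
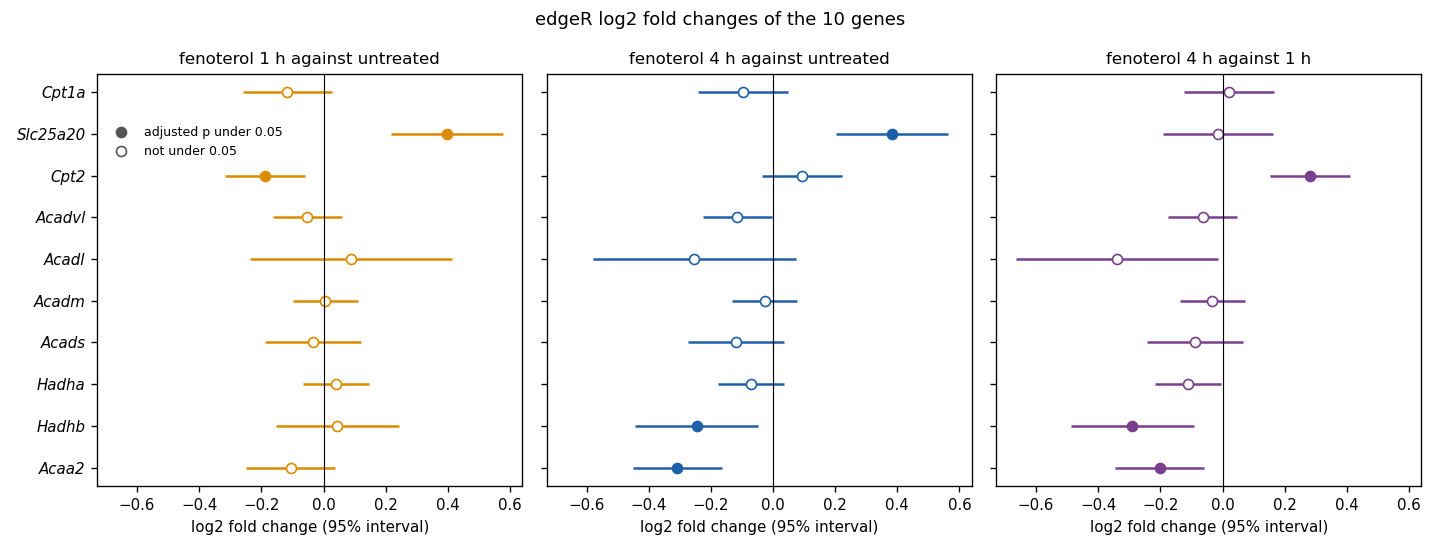
Log2 fold changes (x axis) of the 10 genes for 1 h against untreated (orange), 4 h against untreated (blue) and 4 h against 1 h (purple), from edgeR. Lines are 95% intervals and filled points have an adjusted p under 0.05; Slc25a20 has the largest change at 1 h and 4 h (0.40 and 0.38) and Acadl the widest interval.

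Among the 4 acyl-CoA dehydrogenase genes, none passed the test at 1 h or at 4 h in the fit without a mouse term. They encode the enzymes for very long (Acadvl), long (Acadl), medium (Acadm) and short (Acads) chains. Acadl (ENSMUSG00000026003, chr1:66830839-66863277) stood out by its differences between mice. Its normalized counts in mice 1 to 4 were 1407, 1234, 1256 and 981 untreated, 1495, 1322, 1362 and 1008 at 1 h, and 1147, 1075, 1157 and 725 at 4 h. Mouse 4 was lowest in each group, and each mouse was lowest at 4 h. The SD of the mouse means was 0.258 on the log2 scale, larger than for 92.1% of 10290 genes, whereas the median over the 10 genes was 0.0428 and over all those genes 0.0772.

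For Acadl, the log2 fold change at 4 h was -0.25 (SE 0.15, edgeR adjusted p = 0.210) without the mouse and -0.26 (SE 0.056, edgeR adjusted p = 0.00100) with the mouse as a block. Between 4 h and 1 h it was -0.34 (SE 0.15, edgeR adjusted p = 0.0926), and -0.35 (SE 0.056, edgeR adjusted p = 7.68e-05) with the block. In the fit without the block, leaving out mouse 4 at 4 h gave -0.12 against untreated and -0.20 against 1 h. Leaving out mouse 4 at 1 h gave -0.44 between the times (edgeR adjusted p = 0.0306). Both fits kept the other libraries of mouse 4, which was lowest in each group, so they broke its pairing. In mice 1 to 4, the log2 differences at 4 h were -0.29, -0.20, -0.12 and -0.44 against untreated. Against 1 h they were -0.38, -0.30, -0.24 and -0.47. Without a filter on low counts, Acadl also passed between the times (-0.34, edgeR adjusted p = 0.0394). All 4 mice were lower at 4 h than untreated and than at 1 h. At 1 h, the log2 fold change was 0.09 (95% interval -0.24 to 0.41, edgeR adjusted p = 0.767).

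Acadvl (ENSMUSG00000018574, chr11:70010183-70015411) had 1615, 1608, 1682 and 1635 normalized counts untreated, 1554, 1577, 1472 and 1707 at 1 h, and 1560, 1468, 1550 and 1461 at 4 h in mice 1 to 4. The 4 h libraries lay below the untreated ones without overlap, yet the log2 fold change of -0.12 (95% interval -0.23 to -0.0045, edgeR adjusted p = 0.0930) did not pass. Acadm (ENSMUSG00000062908, chr3:153922357-153944632) had 1524 to 1594 normalized counts untreated, 1487 to 1686 at 1 h and 1496 to 1579 at 4 h. Its log2 fold changes of 0.01 (95% interval -0.10 to 0.11) and -0.03 (95% interval -0.13 to 0.08) had narrow intervals at both times. Acads (ENSMUSG00000029545, chr5:115110299-115119346) had 974 to 1105, 919 to 1148 and 886 to 1021 normalized counts. Its log2 fold changes were -0.03 at 1 h (95% interval -0.19 to 0.12) and -0.12 at 4 h (95% interval -0.28 to 0.03).

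Hadha and Hadhb encode the alpha and beta subunits of the mitochondrial trifunctional protein, which carries out the last steps of the cycle on long chains. Hadhb (ENSMUSG00000059447, chr5:30155248-30184593), the thiolase subunit, had 171, 158, 173 and 171 normalized counts untreated, 171, 190, 166 and 169 at 1 h, and 139, 152, 135 and 143 at 4 h in mice 1 to 4. Every 4 h library was below every other library. Hadhb fell by 0.25 on the log2 scale at 4 h (SE 0.092, edgeR adjusted p = 0.0477) and was lower at 4 h than at 1 h by 0.29 in 4 of 4 mice (log2 fold change -0.29, SE 0.092, edgeR adjusted p = 0.0225). With the mouse as a block the call at 4 h was lost (log2 fold change -0.25, edgeR adjusted p = 0.0510), and 6 of 20 alternatives kept it. The alternatives that lost it included leaving out untreated mouse 1, 3 or 4, 1 h mouse 1 or 4, or 4 h mouse 1, 3 or 4 (edgeR adjusted p 0.0565 to 0.110). The comparison between the times was called in 16 of 20 alternatives, and was lost without 1 h mouse 2 (edgeR adjusted p = 0.0716) or 4 h mouse 3 (edgeR adjusted p = 0.0591), with scaling by library size only (edgeR adjusted p = 0.1004) and without a filter on low counts (edgeR adjusted p = 0.142).

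Hadha (ENSMUSG00000025745, chr5:30118304-30155162), the subunit with the hydratase and the long-chain hydroxyacyl-CoA dehydrogenase, had 3064 to 3360 normalized counts untreated, 3143 to 3437 at 1 h and 2901 to 3179 at 4 h. The log2 fold change was 0.04 at 1 h (95% interval -0.07 to 0.15) and -0.07 at 4 h (95% interval -0.18 to 0.04, edgeR adjusted p = 0.291), with overlapping groups. Between the times it was -0.11 (SE 0.050, edgeR adjusted p = 0.0931), and lower in 4 of 4 mice, and it passed without 1 h mouse 3 (edgeR adjusted p = 0.0399). Whether Hadha and Hadhb differed in their response was not tested, and neither was the part of its shared sequence in the Hadhb values.

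Acaa2 (ENSMUSG00000036880) encodes the mitochondrial 3-ketoacyl-CoA thiolase, which cleaves medium-chain products in the last step of the cycle. Its normalized counts in mice 1 to 4 were 1003, 1149, 1112 and 1072 untreated, 1097, 987, 921 and 1022 at 1 h, and 933, 802, 908 and 855 at 4 h. The 4 h libraries lay below all untreated ones but overlapped those at 1 h, and mouse 1 had the smallest difference at 4 h. Acaa2 fell by 0.31 on the log2 scale at 4 h (SE 0.067, edgeR adjusted p = 0.00191), a drop of 19.2%, and this was called under all 20 alternatives. At 1 h the log2 fold change was -0.11 (95% interval -0.25 to 0.04, edgeR adjusted p = 0.323). Between the times it was -0.20 (SE 0.067, edgeR adjusted p = 0.0278), a call that was lost without 1 h mouse 1 (0.0896), 1 h mouse 4 (0.0575), 4 h mouse 2 (0.0863) or 4 h mouse 4 (0.0641), and with scaling by library size only (0.202).

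For the 3 genes with the largest absolute log2 fold change at 4 h among the 10, the genes of most similar pattern were found by the root mean square difference of centred log2 normalized counts over the 12 libraries, as a description. For Slc25a20 these were Ddx6 (0.0824), Sap18 (0.0827) and Cmtm4 (0.0912). For Acaa2 they were Eef1d (0.0702), Kars (0.0721) and Pih1d1 (0.0727), and for Acadl they were Stk11ip (0.104), Rell1 (0.117) and Pqlc3 (0.119).

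A list of 43 other genes of fatty acid oxidation and its control placed the 10 in their pathway, and 38 of them were tested. At 1 h, 4 of the 38 passed, 1 higher and 3 lower (20.1% of all genes). At 4 h, 15 passed, 5 higher and 10 lower (40.0% of all genes), and between the times 17 passed, 5 higher and 12 lower (38.5% of all genes). With libraries scaled by total count only, 8 passed at 1 h, 1 higher and 7 lower, and 13 passed between the times, 8 higher and 5 lower. Between the times, the more frequent direction of the calls turned. The untested genes were Ppara, with 1 count in all 12 libraries, Ppargc1a with 5, Acaa1b with 13, Cpt1b with 25 and Pdk4 with 68. Ppara and Ppargc1a encode the receptor and the coactivator best known for driving this pathway in liver and muscle.

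By step, 3 of 6 tested genes of carnitine and acyl-CoA handling passed at 4 h (1 higher and 2 lower), 3 of 8 other dehydrogenases and electron transfer genes (1 higher and 2 lower), 2 of 7 hydratases, dehydrogenases, thiolases and auxiliary enzymes (both lower), 3 of 7 regulators (1 higher and 2 lower) and 4 of 10 peroxisomal genes (2 higher and 2 lower). At 1 h the counts were 0, 1, 0, 2 and 1. Over all genes tested, 40.0% passed at 4 h and 20.1% at 1 h, and with so few genes a step none of these counts is read as particular to it.

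The largest change was in Abcd2, a transporter of very long chain acyl-CoA into peroxisomes. Its normalized counts in mice 1 to 4 were 636, 743, 527 and 680 untreated, 261, 357, 267 and 268 at 1 h, and 103, 162, 115 and 110 at 4 h. The 3 groups did not overlap. Abcd2 fell by 1.16 on the log2 scale at 1 h (SE 0.14, edgeR adjusted p = 3.18e-05) and fell by 2.40 at 4 h (SE 0.15, edgeR adjusted p = 1.55e-08). Hsd17b4, the peroxisomal bifunctional enzyme, rose at 4 h from a mean of 2391 ± 153 to 2998 ± 220.3 normalized counts (log2 fold change 0.33, SE 0.067, edgeR adjusted p = 0.00119).

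Acad12, an acyl-CoA dehydrogenase that shares 20.7% of its runs of 50 bases with other genes, mostly Acad10, fell from 506 ± 62.7 to 344 ± 33.7 at 1 h and 275 ± 23.7 at 4 h (log2 fold changes -0.56 and -0.88, edgeR adjusted p = 0.00106 and 7.28e-06). Acot2, a mitochondrial thioesterase that shares 27.7%, mostly with Acot1, rose at 4 h from 116 ± 19.0 to 159.8 ± 20.1 (log2 fold change 0.47, SE 0.14, edgeR adjusted p = 0.0170). That call was lost without untreated mouse 1 or 4 h mouse 3. Acat1, the mitochondrial acetoacetyl-CoA thiolase, was chosen after its values were seen, and fell at 4 h from 1424 ± 143 to 896 ± 42.8 (log2 fold change -0.67, SE 0.068, edgeR adjusted p = 2.04e-06).

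Among the regulators, Acaca, Acacb and Mlycd act on malonyl-CoA, the inhibitor of carnitine palmitoyltransferase 1. Acaca, an acetyl-CoA carboxylase that makes it, rose at 4 h from 237 ± 36.5 to 343 ± 33.8 (log2 fold change 0.53, SE 0.11, edgeR adjusted p = 0.00187), and 52.6% of its runs of 50 bases were shared, mostly with the pseudogene Gm5182. Mlycd, the malonyl-CoA decarboxylase that removes it, fell at 1 h from 528 ± 25.8 to 452 ± 21.1 (log2 fold change -0.22, SE 0.065, edgeR adjusted p = 0.0253). At 4 h Mlycd had 530.3 ± 31.1. The call at 1 h was kept by 14 of 20 alternatives. That call was lost without untreated mouse 2, 3 or 4, without 1 h mouse 2 or 3, and without a filter on low counts (edgeR adjusted p = 0.0976). Acacb, the other acetyl-CoA carboxylase, passed at neither time.

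The nuclear receptor gene Ppard rose at 1 h from 1071 ± 88.6 to 1390.1 ± 142 (log2 fold change 0.38, SE 0.082, edgeR adjusted p = 0.00425). At 4 h, a value given after it was seen, it fell to 709.9 ± 56.2 (log2 fold change -0.59, SE 0.084, edgeR adjusted p = 4.81e-05). Ppargc1b, a coactivator of mitochondrial genes, fell at 4 h from 56.6 ± 20.3 to 26.3 ± 10.5 (log2 fold change -1.12, SE 0.31, edgeR adjusted p = 0.0105), with overlapping groups and lower in 4 of 4 mice.

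**Figure D4:**
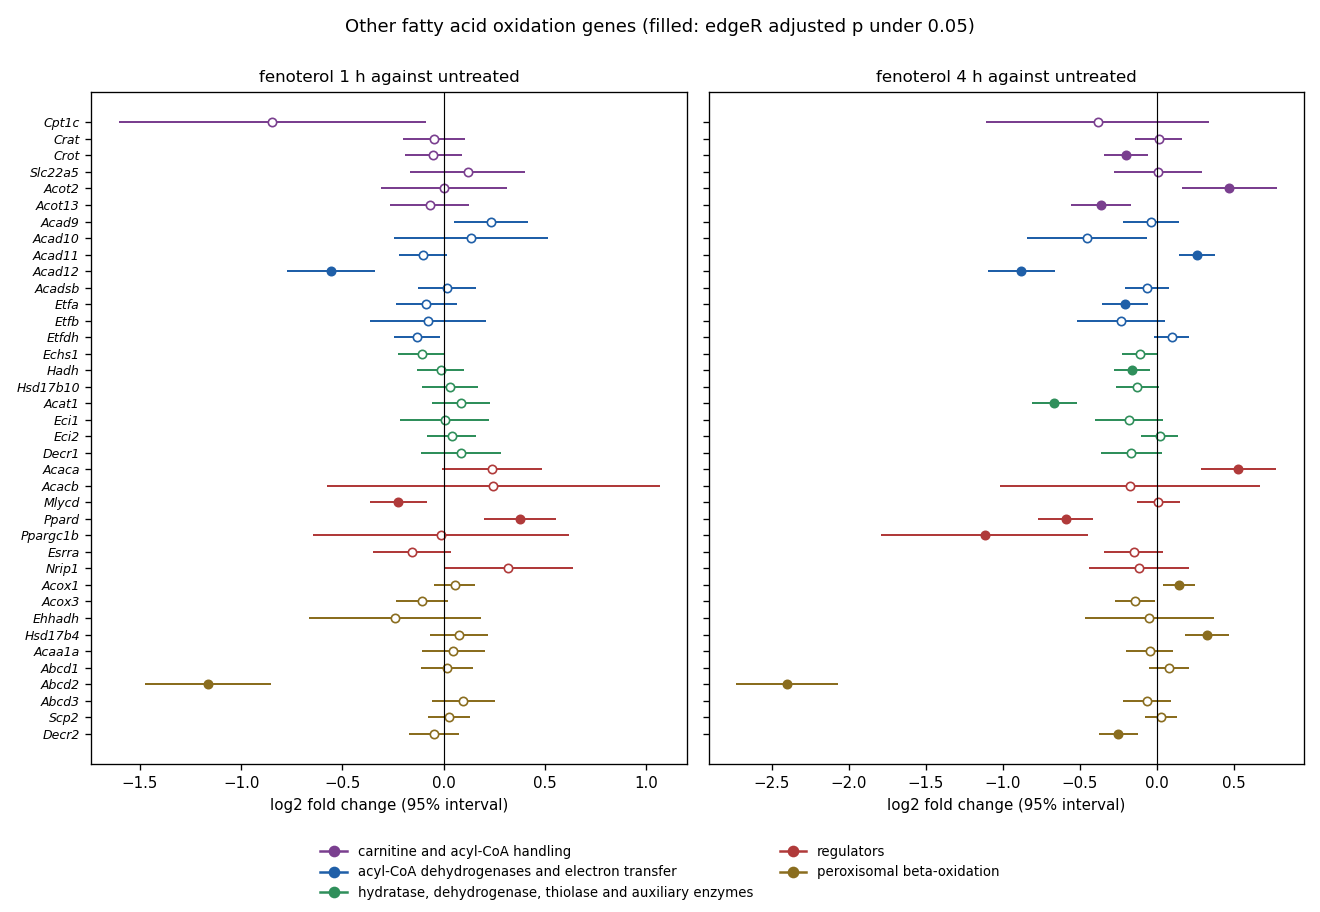
Log2 fold changes (x axes, of different range) of the 38 tested other genes of fatty acid oxidation at 1 h (left) and 4 h (right) against untreated BMDMs, colored by step. Lines are 95% intervals and filled points have an edgeR adjusted p under 0.05; 4 points are filled at 1 h and 15 at 4 h, and Abcd2 is lowest in both panels.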

How the data were processed

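The authors sequenced stranded mRNA libraries (single reads of 50 bases), mapped them to GRCm38 with TopHat2 2.0.11 and counted genes with HTSeq 0.8.0, per the labels. The deposited values are raw counts, not normalized. The annotation release is not given in the sources used here. Symbols, positions and mRNA lengths were taken from GENCODE M21.

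From the counts, edgeR 4.0.16 in R 4.3.3 was used with filterByExpr, TMM scaling (factors 0.953 to 1.04) and the quasi-likelihood test in 1 fit over 12 libraries with a mean per group. This main fit had no mouse term. Benjamini-Hochberg adjustment ran over 12386 genes per contrast, with a threshold of 0.05. Normalized counts use the TMM scaling, and levels per length use the mRNA with the longest coding sequence. The scripts were tested on simulated data that held no differences between mice, so the pairing by mouse was not part of that test.

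A shared number marks libraries of 1 mouse, per the labels. Deviations from the group means of such pairs had r from 0.290 to 0.561 over genes (12 pairs), against -0.304 to 0.0912 for different mice (36 pairs). Replicates of a group differed by 9.71 to 20.0 in chi-square per degree of freedom, so the spread exceeded counting error.

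All 10 genes were named. Of the other genes, those with the 3 largest rises and falls at each time against untreated were named, among genes with an adjusted p under 0.05 and a mean normalized count of at least 20. The genes, lists, tests and the rule were chosen with earlier results of these data known. Alternatives were DESeq2 1.42.0, limma-voom (limma 3.58.1), RLE scaling, scaling by library size only, no filter, a mean count of at least 50, the 2 groups alone, the mouse as a block and each library left out. Figures were drawn with matplotlib 3.10.9.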

Additional observations from a re-analysis of the deposited data

Results flagged for a closer look

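In 57 groups of 4 libraries, 1 library was set apart by its gap to the nearest other library divided by the range of the group (above Dixon's critical value at 95%) in 4 cases, and chance gives about 1 in 20. These were Cpt1a at 4 h in mouse 1 (ratio 0.908, 3078 normalized counts against 3232 to 3248), Hadhb in untreated mouse 2 (ratio 0.899, 158 against 171 to 173), Abcd2 at 1 h in mouse 2 (ratio 0.93, 357 against 261 to 268) and Hsd17b4 in untreated mouse 1 (ratio 0.92, 2620 against 2303 to 2328).

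The effects at 4 h and 1 h differed, by the edgeR test of 4 h against 1 h, for 11 of the 19 genes named (38.5% of all genes tested passed), of which 9 were named for called changes or after their values were seen. Higher at 4 h were Cpt2 (log2 difference 0.28, adjusted p = 0.00179), Mlycd (0.23, adjusted p = 0.0117), Acot2 (0.47, adjusted p = 0.0185) and Hsd17b4 (0.25, adjusted p = 0.00837). Lower at 4 h were Hadhb (-0.29, adjusted p = 0.0225), Acaa2 (-0.20, adjusted p = 0.0278), Ppard (-0.97, adjusted p = 4.86e-07), Abcd2 (-1.24, adjusted p = 2.25e-05), Acad12 (-0.32, adjusted p = 0.0229), Ppargc1b (-1.11, adjusted p = 0.0121) and Acat1 (-0.75, adjusted p = 8.55e-07). Ppard was higher than untreated at 1 h and lower at 4 h. The call between the times was lost for Mlycd without 1 h mouse 3 (adjusted p = 0.0587), for Acot2 without 1 h mouse 1 or 2 or 4 h mouse 3 (0.0506 to 0.0593), for Hadhb and Acaa2 under the alternatives given above, and for Acad12 without 1 h mouse 4 or 4 h mouse 3 or 4 (0.0549 to 0.0743) and with scaling by library size only (0.0823).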

How the results depend on the processing

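The rises of Slc25a20 at 1 h and 4 h, the fall of Acaa2 at 4 h and the difference of Cpt2 between the times were called under all 20 alternatives. The number of the 10 genes called at 1 h was 1 in place of 2 with DESeq2, without a filter on low counts and with the 2 groups alone, through the loss of Cpt2, and 1 to 2 when each library was left out. Between the times it was 1 in place of 3 with scaling by library size only, and 2 to 4 with a library left out. At 4 h it was 2 to 3 with a library left out. For the other genes, scaling by library size only gave 8 in place of 4 at 1 h and 13 (8 higher and 5 lower) in place of 17 (5 higher and 12 lower) between the times, and leaving out a library gave 3 to 5 at 1 h, 12 to 16 at 4 h and 12 to 19 between the times. With the mouse as a block (the replicate block), 2, 3 and 4 of the 10 genes and 6, 17 and 18 of the other genes were called at 1 h, at 4 h and between the times. Among single genes the block changed the calls of Acadl (gained at 4 h, -0.26, and between the times, -0.35) and Hadhb (lost at 4 h, -0.25), and, of the other genes named, of Acaca (gained between the times, 0.28, adjusted p = 0.0127). It changed no further call of the 10 genes or of the 9 other genes named, in the 3 comparisons. The sign of the log2 fold change, for values that passed in no fit, turned with scaling by library size only for Acadm (-0.063), Hadha (-0.028) and Hadhb (-0.024) at 1 h, and for Slc25a20 (0.079), Acadvl (0.029), Acadm (0.060) and Acads (0.0039) between the times. Leaving out a library turned it for Acadm (-0.030 to 0.032) and Acads (-0.098 to 0.018) at 1 h and for Cpt1a (-0.051 to 0.065), Slc25a20 (-0.085 to 0.041) and Acadm (-0.065 to 0.0032) between the times. The cause was not tested. Alternatives for the other genes named were added after seeing the data. Ppargc1b was not tested with a mean count of at least 50. The number of mice (4 a group) limits the size of the differences that these fits could call.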
